A study of Mus musculus with 20 samples.

Results

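Steroid receptor coregulators and chaperones are the proteins that fold steroid receptors, hold them ready for hormone and link them to transcription. The 8 genes described here, Hsp90aa1, Hsp90ab1, Fkbp4, Ncoa1, Ncoa2, Ncoa3, Ncor1 and Nrip1, were chosen by name and found by gene symbol among the 45777 genes of the deposited table. All 8 were above 0 TPM in every library and were among the 18706 genes tested.

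RNA was sequenced from the uteri of 20 wild-type B6D2F1 mice aged 8 to 12 weeks, with 5 mice and 1 library per mouse in each of 4 groups, all collected at 18:00 on day 3.5 after mating. Control mice are labelled as untreated, and whether they received a vehicle is not stated. Mice of the implantation failure (IF) group received low-dose RU486, an antagonist of the progesterone and glucocorticoid receptors, under the skin on the morning of the same day. The PBMC and PBMC-hCG groups received the same RU486 and, on day 1.5, an intrauterine dose of peripheral blood mononuclear cells (PBMCs) cultured without or with human chorionic gonadotropin (hCG). Neither the control nor the IF group had an intrauterine injection, and mice given medium alone were not analysed here, so an effect of the cells and of the injection cannot be told apart. Differences of the PBMC and PBMC-hCG groups from control also include any effect of RU486. Below, the wording with PBMC or with PBMC-hCG names these groups. Values are TPM, a level per transcript length within a library of fixed total, and the read depth behind them is unknown.

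Steroid receptors mature in a complex with HSP90, encoded by Hsp90aa1 and Hsp90ab1, and with co-chaperones such as FKBP4 and FKBP5, which compete for the same site on HSP90. Hormone-bound receptors recruit the p160 coactivators encoded by Ncoa1, Ncoa2 and Ncoa3, whereas NCOR1 and NRIP1 recruit repressor complexes. Mouse uterus that lacks FKBP4 responds poorly to progesterone and does not support implantation, and NRIP1 and the p160 coactivators are also known for roles in female fertility.

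Some libraries stood apart. Control replicate 2 had 330 TPM summed over the 4 adipose tissue markers, against 3.43 to 11.8 TPM in the other control mice, and its median correlation with its group was 0.963, against 0.982 to 0.987 in the others. Fabp4 was the most abundant of these markers, at 242 TPM in that library. IF replicate 5 had 65.7 TPM of the same markers, against 2.88 to 5.997 TPM in the other IF mice. Markers of uterine epithelium, stroma and myometrium were present in every library. Of the 4 blastocyst markers, Pou5f1, Nanog and Cdx2 were listed at 0 in most libraries, whereas Eomes was present in all 20, at 3.75 to 8.04 TPM. A level of Eomes alone therefore does not show blastocyst RNA, and the cells that it came from were not examined. In whole uterus, fewer cells of a type and less RNA per cell cannot be told apart.

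Averaged over the 20 mice, the order of TPM levels was Hsp90ab1 (1688), Hsp90aa1 (238.7), Fkbp4 (213), Ncor1 (37.3), Ncoa2 (21.5), Ncoa3 (20.9), Ncoa1 (14.3) and Nrip1 (13.9). Hsp90ab1 was above Hsp90aa1 in all 20 mice, and Ncor1 was above Ncoa2 in all 20. Neighbours that did not keep 1 order were Hsp90aa1 and Fkbp4 (Hsp90aa1 above in 14 of 20 mice), Ncoa2 and Ncoa3 (Ncoa2 above in 14 of 20) and Ncoa1 and Nrip1 (Ncoa1 above in 12 of 20). Hsp90aa1 varied most, with a highest value 3.42 times the lowest, and Hsp90ab1 least, at 1.26 times.

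**Figure D1:**
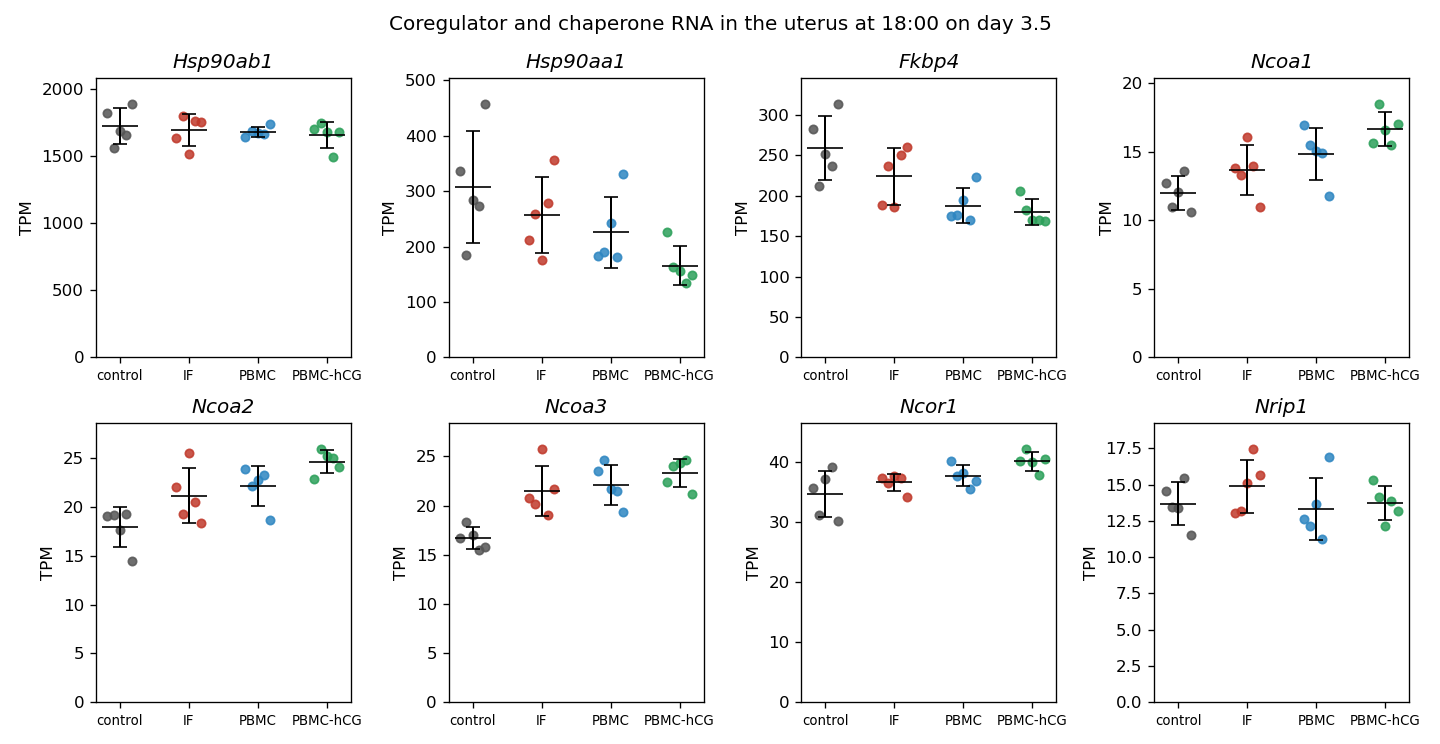
TPM of the 8 genes in each mouse (points), with the group mean and SD (bars, n = 5 mice per group), on axes that start at 0. Hsp90aa1 and Fkbp4 are lowest on average in the PBMC-hCG group (166 and 180 TPM), the 3 Ncoa genes are highest there, and Hsp90ab1 and Nrip1 stay at similar means in all groups.

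Differences between groups were tested with limma on log2(TPM + 0.1) over all tested genes, and a gene was called at a Benjamini-Hochberg adjusted p under 0.05. Between IF and control, 1 of the 8 genes was called, beside 21.9% of all tested genes, and it was higher in the IF group, as were 13.4% of all genes. None of the 8 was called by limma between PBMC and IF, where 0% of all genes passed, and 1 had an unadjusted p under 0.05, as did 6.79% of all genes. Between PBMC-hCG and IF, none of the 8 was called by limma, beside 13.6% of all genes, and 4 had an unadjusted p under 0.05, beside 35.0% of all genes. Between PBMC-hCG and PBMC, none was called by limma, beside 0.0107% of all genes, and 0 had an unadjusted p under 0.05, beside 16.2% of all genes. Against control, 3 of the 8 were called in the PBMC group (19.5% of all genes), with 2 higher (12.8%) and 1 lower (6.7%). In the PBMC-hCG group 6 of the 8 were called against control (31.8% of all genes), with 4 higher (20.2%) and 2 lower (11.6%). All comparisons with control share the control mice, and each of the 8 genes differed by less than 2-fold in every comparison. The split of all called genes moved with the scaling: 61.1% were higher between IF and control (50.8% after quantile normalization), 55.9% between PBMC-hCG and IF (39.4% with the same median in every library), 65.7% between PBMC and control (53.5% after quantile normalization) and 63.5% between PBMC-hCG and control (51.1% with the same median).

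The count of 2544 genes called between PBMC-hCG and IF depended on which mice were included, and omitting any mouse also left a smaller group. Omitting IF replicates 2, 4 and 5 in turn left 8, 14 and 0 genes, and omitting PBMC-hCG replicates 2, 3, 4 and 5 in turn left 1, 0, 18 and 34. The count was 5061 once IF replicate 3 was omitted, with 4 of the 8 genes among them, and 4166 once PBMC-hCG replicate 1 was, with 2 of the 8. Omission of IF replicate 1 left 2334 genes and 1 of the 8. Control replicate 2 changed no count of the 8 genes: without it, 1, 3 and 6 were called in the IF, PBMC and PBMC-hCG groups against control.

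Hsp90ab1 encodes the constitutive cytosolic HSP90. Its levels in control replicates 1 to 5 were 1822, 1557, 1684, 1656 and 1888 TPM, and in IF mice 1632, 1798, 1513, 1761 and 1755 TPM. In PBMC mice they were 1642, 1686, 1673, 1662 and 1741 TPM, and in PBMC-hCG mice 1697, 1747, 1675, 1493 and 1674 TPM. The 4 groups overlapped throughout, and PBMC-hCG replicate 4 was the lowest mouse of all. The log2 fold change between PBMC-hCG and control was -0.05 (95% confidence interval -0.19 to 0.08, limma adjusted p = 0.556), and Hsp90ab1 was called in none of the 6 comparisons (lowest unadjusted p = 0.412).

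Hsp90aa1, the inducible form of HSP90, was at 337, 185, 284, 274 and 458 TPM in control replicates 1 to 5 and at 212, 259, 176, 278 and 356 TPM in IF mice. PBMC mice had 184, 189, 243, 181 and 331 TPM, and PBMC-hCG mice 227, 163, 156, 134 and 149 TPM. Replicate 5 was the highest mouse of the control, IF and PBMC groups, whereas replicate 1 was the highest in the PBMC-hCG group. The other 4 PBMC-hCG mice were below every mouse of the other groups. With PBMC-hCG, Hsp90aa1 fell to 0.554 times the control level, a log2 fold change of -0.85 (SE 0.23, limma adjusted p = 0.00817), although PBMC-hCG replicate 1 lay above control replicate 2. Against IF the log2 fold change was -0.61 (95% confidence interval -1.09 to -0.14, limma adjusted p = 0.0715), which passed without IF replicate 3 (adjusted p = 0.0283) or PBMC-hCG replicate 1 (0.0347), with the replicate number as a block (0.0483) and with sample quality weights (0.00156). It stayed uncalled in 16 of 20 refits under other settings or without single mice, at a limma adjusted p of up to 0.214. The weights called 8078 of the 18706 tested genes in this comparison. Between IF and control the log2 fold change of Hsp90aa1 was -0.24 (95% confidence interval -0.72 to 0.23, limma adjusted p = 0.496).

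Within a mouse, Hsp90ab1 TPM was 5.99 ± 1.56 times Hsp90aa1 TPM in the control group, 6.90 ± 1.39 in the IF group, 7.84 ± 1.71 in the PBMC group and 10.3 ± 1.58 in the PBMC-hCG group (SD, n = 5 each). The ranges overlapped, at 4.12 to 8.43 in control mice and 7.48 to 11.2 in PBMC-hCG mice. A difference in this ratio was not tested. Over the 20 mice and 15770 other genes of at least 1 TPM on average, log2 levels of Hsp90aa1 were most like those of Gm12346 (r = 0.996), Gm5844 (r = 0.987) and Cct6a (r = 0.981). Gm12346 and Gm5844, at 24.0 and 4.51 TPM on average, are annotated as pseudogenes. Their gene of origin and any reads shared with other genes were not examined. With the group means subtracted, Hspd1, a mitochondrial chaperonin, was also among the 3 most alike (r = 0.984).

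Fkbp4 encodes FKBP52, an HSP90 co-chaperone that raises the hormone response of the progesterone receptor. Its values were 283, 212, 251, 236 and 314 TPM in untreated control mice and 188, 237, 186, 250 and 260 TPM in IF mice. In the PBMC group the values were 175, 176, 195, 170 and 223 TPM, and in the PBMC-hCG group 206, 182, 170, 170 and 169 TPM. All PBMC-hCG mice lay below all control mice, as for 5.07% of all tested genes, while PBMC replicate 5 lay above control replicate 2. Fkbp4 fell by 0.46 on the log2 scale with PBMC (SE 0.11, limma adjusted p = 0.00761) and by 0.52 with PBMC-hCG (SE 0.11, limma adjusted p = 0.00212), both against control. In the IF group the log2 fold change against control was -0.21 (95% confidence interval -0.45 to 0.03, limma adjusted p = 0.207). Against IF, Fkbp4 had log2 fold changes of -0.25 with PBMC (unadjusted p = 0.0407, limma adjusted p = 0.724) and -0.31 with PBMC-hCG (limma adjusted p = 0.0684). The latter passed without IF replicate 1 (adjusted p = 0.0463), IF replicate 3 (0.0262) or PBMC-hCG replicate 1 (0.0382) and with sample quality weights (0.00243). It stayed uncalled in 16 of 20 refits, at a limma adjusted p of up to 0.202.

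Levels of Fkbp4 were most like those of Ahsa1, which encodes an activator of the HSP90 ATPase (r = 0.974 over the 20 mice), followed by Swi5 (r = 0.962) and Agpat5 (r = 0.958). Among the 8 genes, Fkbp4 and Hsp90aa1 were the most alike pair, with r = 0.926 over the 20 mice and 0.957 with the group means subtracted. The mice are the same in each pair, and the values share library and scaling.

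Fkbp5 encodes FKBP51, a co-chaperone of the same site whose gene is known to respond to glucocorticoid and progesterone. Its values were 43.3, 31.8, 44.8, 44.2 and 49.4 TPM in untreated control mice and 11.2, 14.3, 8.68, 12.2 and 14.5 TPM in IF mice. PBMC mice had 10.1, 11.9, 12.0, 10.2 and 13.8 TPM, and PBMC-hCG mice 11.8, 8.56, 9.48, 7.80 and 9.32 TPM. Every mouse given RU486 was below every control mouse. The log2 fold change against control was -1.81 in the IF group (SE 0.15, limma adjusted p = 1.33e-07), -1.87 in the PBMC group and -2.17 in the PBMC-hCG group. Fkbp4 TPM was 6.10 ± 0.585 times Fkbp5 TPM in control mice and 18.7 ± 2.22 times in IF mice (SD, n = 5 each), with 16.2 ± 0.890 in PBMC and 19.3 ± 2.04 in PBMC-hCG mice.

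The other co-chaperones of HSP90 and HSP70, 21 genes with Fkbp5, had 1 higher and 2 lower between IF and control, with a median log2 fold change of -0.01 beside 0.02 for all genes, of which 13.4% were higher and 8.53% lower. Unc45a rose from 43.5 to 50.7 TPM, a call lost without control replicate 1 (limma adjusted p = 0.0569) or 4 (0.0556) or IF replicate 4 (0.0756) or 5 (0.0745), and under both other scalings (same median 0.0653, quantile 0.105). Ppp5c fell from 71.6 to 61.4 TPM, a call lost without control replicate 1 (limma adjusted p = 0.0565), 3 (0.0516) or 5 (0.0606) or IF replicate 3 (0.0551), or with these groups fitted alone (0.0761), and Fkbp5 was the other lower gene. Against control, none was higher and 4 were lower with PBMC (12.8% and 6.7% of all genes), namely Fkbp5, Ppp5c (59.9 TPM), Ahsa1 (157 TPM) and Ppid (60.9 TPM). The call of Ahsa1 was lost without control replicate 1 (limma adjusted p = 0.055) or 5 (0.0668) or PBMC replicate 2 (0.0506) or 4 (0.0576). That of Ppid was lost without control replicate 1 (limma adjusted p = 0.0778), 4 (0.0616) or 5 (0.1018) or PBMC replicate 1 (0.0569), 2 (0.0892), 3 (0.0524) or 4 (0.1002), without a filter (0.0586) and with these groups fitted alone (0.0774). In the PBMC-hCG group against control, 1 was higher and 8 were lower, with a median of -0.20 beside 0.08 for all genes, of which 20.2% were higher and 11.6% lower. Ahsa1 fell from 207 to 141 TPM (log2 fold change -0.55, limma adjusted p = 0.00157), Stub1 from 137 to 108 TPM and Ppid from 79.1 to 53.0 TPM. Ptges3, which encodes the p23 co-chaperone, fell from 175 to 125 TPM (log2 fold change -0.46, limma adjusted p = 0.0249), a call lost without control replicate 1 (adjusted p = 0.0638), control replicate 5 (0.0745), PBMC-hCG replicate 3 (0.0571), PBMC-hCG replicate 4 (0.0604) or PBMC-hCG replicate 5 (0.0502).

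Of 15 heat shock proteins and factors, 4 were lower and none higher between IF and control (median log2 fold change -0.15), beside 8.53% of all genes lower and 13.4% higher, namely Cryab, Hsf2, Hspe1 and Trap1. The call of Hspe1 was lost without control replicate 5 (limma adjusted p = 0.0513) or IF replicate 3 (0.0516), and when these groups were fitted alone those of Cryab (0.0506), Hspe1 (0.0867) and Trap1 (0.0583) were lost. Against control, 3 were lower with PBMC (Cryab, Hspd1 and Hspe1), beside 6.7% of all genes, and none of these passed without control replicate 5 (limma adjusted p = 0.0761, 0.0576 and 0.0573) or with these groups fitted alone (0.0663, 0.0529 and 0.0639). Cryab also lost its call without PBMC replicate 2 (0.0659), 4 (0.05003) or 5 (0.0522), and Hspe1 without control replicate 1 (0.0514). With PBMC-hCG, 6 were lower and 1 was higher (median -0.31), beside 11.6% and 20.2% of all genes. Hspd1 fell from 299 to 141 TPM with PBMC-hCG (log2 fold change -1.04, SE 0.20, limma adjusted p = 0.000846) and Hspe1, its co-chaperonin, from 371 to 233 TPM (log2 fold change -0.64), while Cryab fell from 40.7 to 21.6 TPM and Hsf1 from 43.5 to 35.2 TPM. Hspa8, the constitutive HSP70, was at 1643 TPM in control, 1808 TPM in IF, 1576 TPM in PBMC and 1366 TPM in PBMC-hCG mice on average and was called in none of the 6 comparisons. Of 13 tested FKBP genes other than Fkbp4, 1 was higher and 3 were lower between IF and control (13.4% and 8.53% of all genes), 3 and 5 between PBMC and control (median -0.14, beside 12.8% and 6.7%), and 1 and 6 between PBMC-hCG and control (median -0.46, beside 20.2% and 11.6%). The higher gene in the IF group was Fkbp15, at 29.0 against 25.5 TPM, a call lost without control replicate 2 (limma adjusted p = 0.0556) or 5 (0.1075) or IF replicate 2 (0.0822), 3 (0.0947), 4 (0.0594) or 5 (0.0589), after quantile normalization (0.0864), with these groups fitted alone (0.144), without a filter (0.052), without the variance trend (0.0538) and with sample quality weights (0.0652). The lower genes in the IF group were Fkbp5, Fkbp3 (65.6 TPM) and Fkbp7 (51.6 TPM). Fkbp3 fell from 96.4 to 69.9 TPM, Fkbp7 from 81.1 to 57.3 TPM and Fkbp11 from 87.2 to 30.0 TPM with PBMC-hCG against control, and they were at 69.4, 54.9 and 33.0 TPM with PBMC, where all 3 were called lower too.

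The promoters of Fkbp4 and Ncoa1 are shown because these genes differed from control in opposite directions. Promoter sequences from RefSeq (GRCm38.p6) were matched by symbol for 4 of the 8 genes (Fkbp4, Ncoa1, Ncor1 and Nrip1) and not for Hsp90aa1, Hsp90ab1, Ncoa2 and Ncoa3. Each window is the 250 bases before an annotated transcript start. That of Ncoa1 reaches into the annotated gene, whose own start lies further upstream, at 4477206. Fkbp4 lies on the minus strand at chr6:128438657-128438906 and Ncoa1 on the minus strand at chr12:4477183-4477432. Capitals mark a heat shock element pair, GAANNTTC.
Fkbp4: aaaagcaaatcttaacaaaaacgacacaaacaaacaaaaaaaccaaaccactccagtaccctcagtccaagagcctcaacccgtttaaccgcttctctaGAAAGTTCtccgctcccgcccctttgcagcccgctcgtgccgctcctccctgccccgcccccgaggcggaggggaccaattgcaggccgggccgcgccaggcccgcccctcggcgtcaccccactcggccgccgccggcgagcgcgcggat
Ncoa1: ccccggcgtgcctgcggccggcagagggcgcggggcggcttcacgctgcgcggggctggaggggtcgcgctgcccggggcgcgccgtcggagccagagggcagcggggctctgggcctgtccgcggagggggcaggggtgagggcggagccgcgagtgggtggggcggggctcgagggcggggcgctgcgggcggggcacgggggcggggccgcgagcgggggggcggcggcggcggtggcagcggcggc

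The 4 motifs searched, on both strands, were chosen after the Fkbp4 promoter had been seen. GAANNTTC occurred in 6.7% of 32841 promoter windows of the same length, and once in that of Fkbp4. TTCNNGAA, the other arrangement of the same units, which can overlap it, occurred in 7.17% of windows. The estrogen response element, GGTCA and TGACC with 3 bases between them, occurred in 0.0639%, and TGTTCT, a unit of progesterone and glucocorticoid response elements, in 16.1%. None of these 3 was in the Fkbp4 window, none of the 4 motifs was in the Ncoa1 window, and TGTTCT occurred 2 times in 1 of the windows of Ncor1. Either heat shock arrangement was found for 14.6% of 27018 genes, for 6 of 12 matched heat shock genes and for 5 of 19 matched co-chaperone genes. These genes are not all independent, as windows of Hspd1 and Hspe1, both counted, overlap on chromosome 1. The window of Ahsa1, the gene most like Fkbp4, held neither heat shock arrangement. Bases were 63.2% G or C in the Fkbp4 window and 85.6% in that of Ncoa1.

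Ncoa1 encodes SRC-1, a p160 coactivator of progesterone and estrogen receptors. Its values were 12.7, 10.9, 12.1, 13.6 and 10.6 TPM in untreated control mice and 13.8, 13.3, 16.1, 14.0 and 11.0 TPM in IF mice. PBMC mice had 17.0, 15.5, 15.0, 14.9 and 11.7 TPM, and PBMC-hCG mice 15.6, 18.5, 16.6, 15.5 and 17.0 TPM. All PBMC-hCG mice were above all control mice, while the PBMC group overlapped the control group through its replicate 5. With PBMC-hCG, Ncoa1 rose to 1.39 times control, a log2 fold change of 0.47 (SE 0.11, limma adjusted p = 0.0025). It was 0.30 with PBMC (limma adjusted p = 0.0524), which passed under 5 other settings: the same median in every library (adjusted p = 0.0365), quantile normalization (0.033), a mean of at least 1 TPM (0.045), the replicate number as a block (0.0379) and sample quality weights (0.00667). It also passed without control replicate 4 (0.0391) or PBMC replicate 5 (0.011), and stayed uncalled in 13 of 20 refits (up to 0.133). For PBMC-hCG against IF the log2 fold change was 0.29 (limma adjusted p = 0.0644), which passed without IF replicate 3 (0.0233), with the block (0.047) and with the weights (0.00328). That difference stayed uncalled in 17 of 20 refits, at a limma adjusted p of up to 0.203.

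Ncoa2, encoding SRC-2, was at 19.0, 19.2, 17.7, 19.3 and 14.4 TPM in untreated control mice and 22.1, 19.3, 25.5, 20.5 and 18.3 TPM in IF mice. The PBMC values were 23.9, 22.1, 22.7, 23.3 and 18.7 TPM, and those with PBMC-hCG 22.9, 25.9, 25.2, 25.0 and 24.1 TPM. Replicate 5 was the lowest mouse of the control, IF and PBMC groups, and only the PBMC-hCG group lay wholly above the control group. Ncoa2 rose with PBMC-hCG against control (log2 fold change 0.46, SE 0.10, limma adjusted p = 0.00127). It also rose with PBMC (log2 fold change 0.31, SE 0.10, limma adjusted p = 0.0283), a call lost without control replicate 3 (adjusted p = 0.0526), control replicate 5 (0.0809), PBMC replicate 1 (0.0687), PBMC replicate 2 (0.0526), PBMC replicate 3 (0.0591) or PBMC replicate 4 (0.0649). This call was also lost with these groups fitted alone (limma adjusted p = 0.0707). The IF group did not pass against control (log2 fold change 0.23, limma adjusted p = 0.0844) but did with the same median in every library (0.0463) and with the replicate number as a block (0.0432). PBMC-hCG did not pass against IF (0.23, limma adjusted p = 0.097) but did without IF replicate 3 (0.0245) and with sample quality weights (0.0029). Each of these differences stayed uncalled in 18 of 20 refits, at a limma adjusted p of up to 0.22 (IF and control) and 0.26 (PBMC-hCG and IF).

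Ncoa3, encoding SRC-3, was at 16.7, 18.4, 17.0, 15.5 and 15.8 TPM in untreated control mice and 20.7, 20.1, 25.8, 19.1 and 21.7 TPM in IF mice. PBMC mice were at 23.5, 24.6, 21.6, 21.5 and 19.3 TPM, and PBMC-hCG mice at 22.4, 24.0, 24.3, 24.6 and 21.2 TPM. No mouse given RU486 overlapped the control range. Such separation upward was found for 8.55% of all tested genes between IF and control, 8.65% between PBMC and control and 13.2% between PBMC-hCG and control, where it held for Ncoa1, Ncoa2 and Ncoa3. Ncoa3 rose against control in the IF group (log2 fold change 0.36, SE 0.08, limma adjusted p = 0.00386), with PBMC (0.40, SE 0.08, adjusted p = 0.00172) and with PBMC-hCG (0.48, SE 0.08, adjusted p = 0.000266). Its 95% confidence intervals against IF were -0.13 to 0.22 for PBMC and -0.05 to 0.29 for PBMC-hCG. With sample quality weights, PBMC-hCG passed against IF (limma adjusted p = 0.0255), but it stayed uncalled in 19 of 20 refits (up to 0.597).

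**Figure D2:**
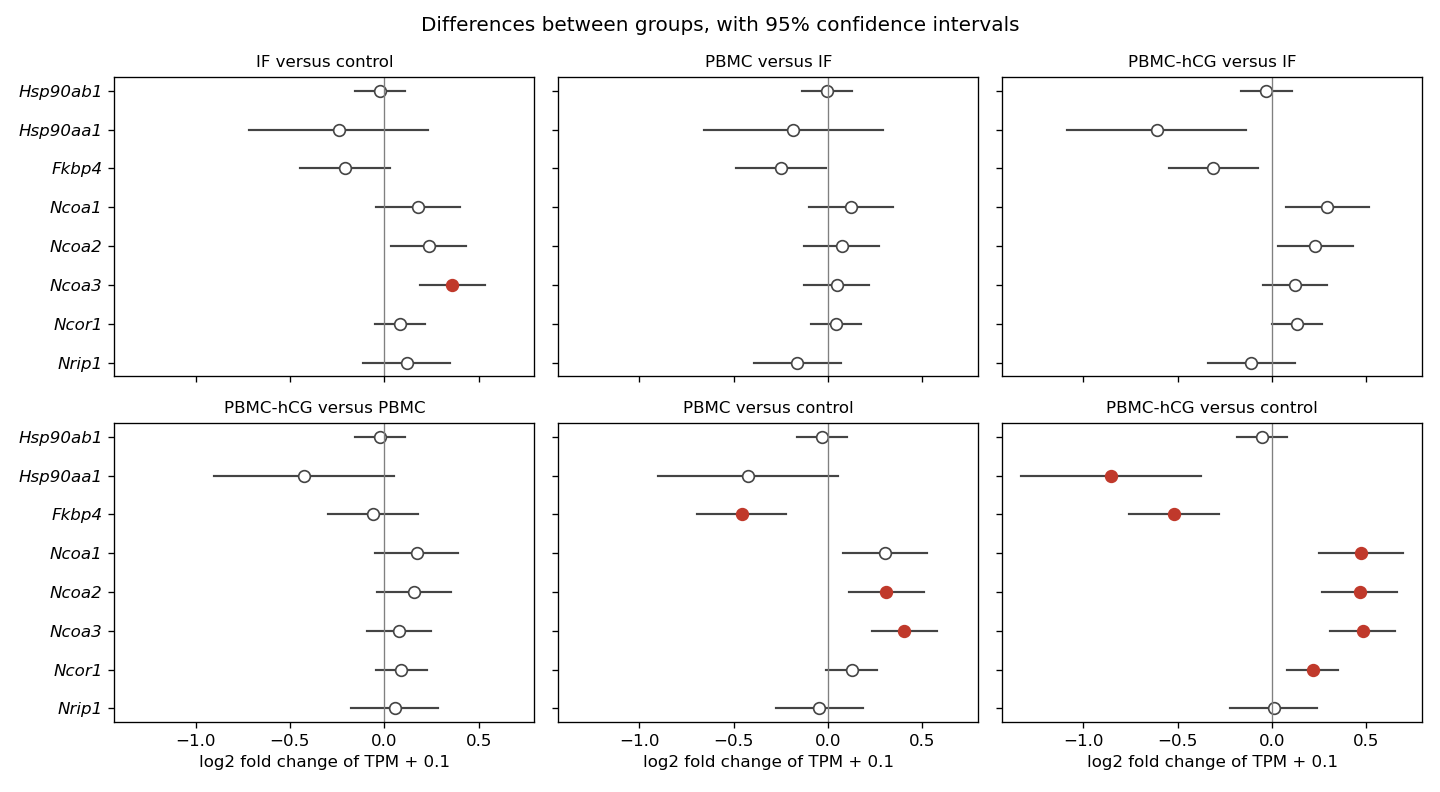
Log2 fold changes of TPM + 0.1 for the 8 genes in the 6 comparisons (points, 5 against 5 mice) with 95% confidence intervals from limma (lines). Filled points are genes called at an adjusted p under 0.05, which are Ncoa3 between IF and control, 3 genes between PBMC and control and 6 between PBMC-hCG and control.

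In each of the 4 groups the mouse with the most Hsp90aa1 also had the most Fkbp4, the least Ncoa2 and the lowest position on the first principal component of all tested genes, which held 26.4% of the variance. These mice were replicate 5 of the control, IF and PBMC groups and replicate 1 of the PBMC-hCG group. The other p160 genes did not follow this in every group. Ncoa1 was lowest in PBMC-hCG replicate 4, and Ncoa3 in control replicate 4, IF replicate 4 and PBMC-hCG replicate 5. Log2 levels of Hsp90aa1 and Ncoa2 correlated at r = -0.888 over the 20 mice and -0.828 with the group means subtracted, and those of Fkbp4 and Ncoa2 at -0.901 and -0.816. Ncoa1 and Ncoa2 correlated at 0.915 and 0.806, but Ncoa1 and Ncoa3 at 0.718 and 0.364. Hsp90aa1 correlated at -0.777 and -0.57 with Ncoa1 and at -0.723 and -0.614 with Ncoa3. The share of all genes with such correlations was not examined. The most similar genes outside the 8 were Atf7 for Ncoa1 (r = 0.956), Ablim1 for Ncoa2 (r = 0.962), Ube2h for Ncoa3 (r = 0.951), Ccser2 for Ncor1 (r = 0.908), Tex2 for Nrip1 (r = 0.82) and Ercc6l for Hsp90ab1 (r = 0.912).

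**Figure D3:**
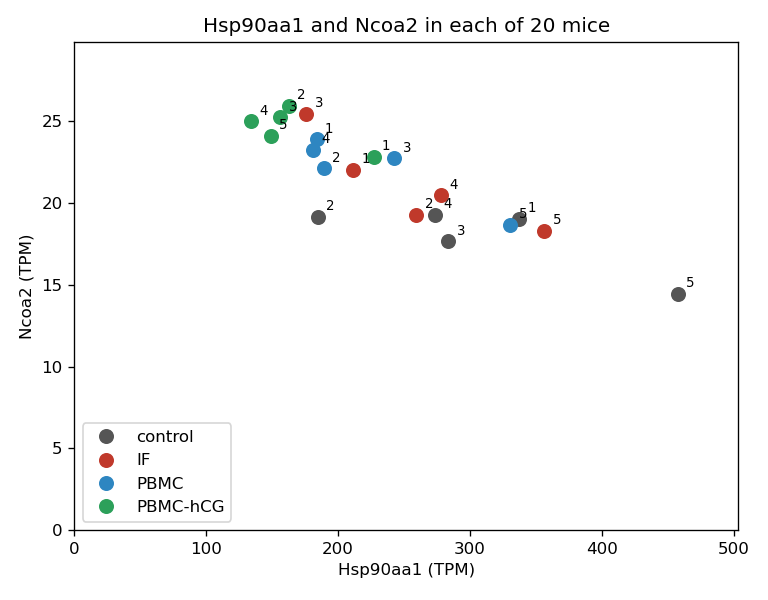
TPM of Hsp90aa1 (x axis) and Ncoa2 (y axis) in each of the 20 mice, coloured by group and numbered by replicate, on axes that start at 0. Control replicate 5 has the most Hsp90aa1 (458 TPM) and the least Ncoa2 (14.4 TPM), and 4 of the PBMC-hCG mice lie at the opposite corner.

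Of 20 other coactivators, 8 were higher and 1 lower between IF and control (median log2 fold change 0.13 beside 0.02 for all genes, of which 13.4% were higher and 8.53% lower). Kat2b, a histone acetyltransferase, rose from 24.0 to 39.2 TPM (log2 fold change 0.70, limma adjusted p = 9.24e-08), the Mediator gene Med13 from 15.5 to 21.6 TPM and Ddx5 from 603 to 711 TPM, while Ppargc1b fell from 1.08 to 0.458 TPM. Against control, 6 were higher and 1 lower with PBMC (12.8% and 6.7% of all genes), and 7 higher and 3 lower with PBMC-hCG (20.2% and 11.6%). Kat2b and Med13 were called higher in both, Ncoa7 rose to 36.7 TPM and Ppargc1b fell to 0.656 TPM with PBMC, and with PBMC-hCG Ncoa7 rose from 25.2 to 36.9 TPM and Crebbp from 14.8 to 19.97 TPM. With PBMC-hCG against IF, none was higher and 1 was lower (7.61% and 5.99% of all genes), Pelp1, at 25.5 against 30.8 TPM (limma adjusted p = 0.0464). Its call was lost when certain mice were omitted and under some other settings, as given below.

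Ncor1 encodes a corepressor that brings histone deacetylase complexes to receptors. Its values were 35.8, 31.2, 37.2, 39.1 and 30.2 TPM in untreated control mice and 37.3, 36.5, 37.7, 37.5 and 34.2 TPM in IF mice. PBMC mice had 40.2, 37.7, 38.2, 35.5 and 36.9 TPM, and PBMC-hCG mice 40.2, 42.2, 40.0, 37.9 and 40.5 TPM. All PBMC-hCG mice were above all IF mice, as for 5.05% of all tested genes, but the difference did not pass (log2 fold change 0.13, limma adjusted p = 0.149). It passed with sample quality weights (limma adjusted p = 0.041) but stayed uncalled in 19 of 20 refits (up to 0.385). Control replicates 2 and 5 were the lowest of the 20 mice. Ncor1 rose with PBMC-hCG against control (log2 fold change 0.22, SE 0.06, limma adjusted p = 0.0155), with overlap through control replicate 4. The call was lost without control replicate 5 (limma adjusted p = 0.0505) and with these groups fitted alone (0.0574).

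Nrip1 encodes RIP140, a corepressor needed in the ovary and known as an estrogen-responsive gene. Its values were 14.6, 13.5, 13.4, 15.5 and 11.5 TPM in untreated control mice and 13.0, 13.2, 15.1, 17.5 and 15.6 TPM in IF mice. PBMC mice had 12.6, 12.2, 13.7, 11.3 and 16.9 TPM, and PBMC-hCG mice 15.3, 14.2, 12.2, 13.8 and 13.2 TPM. The groups overlapped throughout and no comparison was called (lowest unadjusted p = 0.151). Between PBMC-hCG and control the 95% confidence interval of the log2 fold change was -0.22 to 0.24.

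Of 13 tested corepressors other than these, 1 was higher and 1 lower between IF and control (median log2 fold change 0.04), beside 13.4% and 8.53% of all genes. Rcor1 rose from 24.3 to 28.2 TPM, and Phb2 fell from 195 to 165 TPM. Nr0b2, at 0 TPM in control replicate 4, was not tested. It was at 0.363, 4.36, 1.38 and 1.08 TPM in control, IF, PBMC and PBMC-hCG mice on average. The call of Rcor1 was lost without control replicate 2 (limma adjusted p = 0.0894) or 3 (0.0812) or IF replicate 1 (0.0524), 4 (0.0725) or 5 (0.114), under both other scalings (0.0746 and 0.0725), with these groups fitted alone (0.111), without a filter (0.0541) and without the variance trend (0.0503). Against control, 2 were higher and 1 lower with PBMC (12.8% and 6.7% of all genes), and 2 higher and 2 lower with PBMC-hCG (20.2% and 11.6%). The higher genes in both were Tbl1x, which rose from 60.8 to 83.5 and 83.2 TPM, and Tbl1xr1, and Phb2 was lower in both. Hdac2 fell from 98.8 to 79.1 TPM with PBMC-hCG, a call lost without control replicate 1 (limma adjusted p = 0.0572) and with these groups fitted alone (0.0567). Tbl1xr1, a subunit of NCOR complexes, rose with PBMC-hCG against IF, from 14.3 to 18.3 TPM (log2 fold change 0.36, limma adjusted p = 0.0313), beside 7.61% of all genes called higher. Its call was lost when certain mice were omitted, as given below.

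Between PBMC-hCG and IF, 9 of 85 tested genes of the lists were called (10.6%, beside 13.6% of all genes): Tbl1xr1, Nr3c1 and Sugt1 were higher, and Pelp1, Ppid, Unc45a, Dnaja2, Hsf1 and Fkbp11 were lower. All 9 lost their calls when any of IF replicates 2, 4 and 5 or PBMC-hCG replicates 2, 3, 4 and 5 was omitted. All 9 kept their sign, with log2 fold changes in these fits of 0.328 to 0.412 for Nr3c1 and 0.295 to 0.392 for Tbl1xr1. For Nr3c1 the limma adjusted p was then 0.0576, 0.0582 and 0.0919 for the IF mice and 0.0804, 0.0827, 0.0609 and 0.0535 for the PBMC-hCG mice, in that order. For Tbl1xr1 it was 0.0598, 0.0678 and 0.108, and 0.083, 0.0872, 0.0699 and 0.0537. Ppid (limma adjusted p = 0.0561) and Pelp1 (0.05002) also lost theirs without IF replicate 1, and Fkbp11 (0.0523) without IF replicate 3. Without a filter, Fkbp11 (limma adjusted p = 0.068), Dnaja2 (0.0573), Ppid (0.0763), Sugt1 (0.0573) and Pelp1 (0.0702) did not pass. Nor did Ppid (0.057), Sugt1 (0.0587) and Pelp1 (0.0553) without the variance trend, Fkbp11 (0.068), Sugt1 (0.0568) and Pelp1 (0.0528) with these groups fitted alone, or Sugt1 with the same median in every library (0.169). None of the list genes was called by limma between PBMC and IF or between PBMC-hCG and PBMC.

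Of the receptors themselves, Pgr rose from 45.9 TPM in control to 150.0 TPM in IF mice (log2 fold change 1.71, limma adjusted p = 1.44e-07) and Esr1 from 108 to 154 TPM, and both were also called with PBMC and PBMC-hCG against control. Nr3c1, the glucocorticoid receptor gene, was at 20.2, 23.8, 26.8 and 31.1 TPM in control, IF, PBMC and PBMC-hCG mice on average and Nr3c2 at 1.28, 1.72, 1.83 and 2.77 TPM, and these 4 receptors were all called higher with PBMC-hCG against control (20.2% of all genes), as was Nr3c1 with PBMC. Esr2 was not tested.

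Markers of other cell types were called in the same comparisons. Of all tested genes, 13.4% were higher and 8.53% lower between IF and control, 12.8% and 6.7% between PBMC and control, 20.2% and 11.6% between PBMC-hCG and control, and 7.61% and 5.99% between PBMC-hCG and IF. Of 6 myometrium markers, 5 were lower with PBMC-hCG against control and 1, Acta2, between IF and control. Without control replicate 5, neither Des nor Tagln passed with PBMC-hCG (limma adjusted p = 0.111 and 0.103), nor did Acta2 in the IF group (0.0936), and all 3 lost their calls without certain other mice too, among them control replicate 3 (0.0652, 0.0722 and 0.0986). The summed level of the 6 markers in control mice was 6632, 5900, 8784, 8098 and 11100 TPM, with 6407, 6149, 5950, 7266 and 7431 TPM in IF mice, 7130, 6966, 6672, 5795 and 6234 TPM in PBMC mice and 6039, 5439, 4806, 5435 and 5462 TPM in PBMC-hCG mice. Tagln was the most abundant, at 2599 TPM in control and 2017 TPM in PBMC-hCG mice. Control replicate 5, with the most Hsp90aa1 and Fkbp4, had the highest sum. IF replicate 5 and PBMC-hCG replicate 1, highest in both genes within their groups, also had the highest sums there. PBMC replicate 5, highest in both genes within its group, did not (6234 TPM). Endothelium markers of control mice summed to 331, 247, 326, 333 and 265 TPM, with 407, 412, 413, 392.3 and 385 TPM in IF mice, 389, 420, 403, 430 and 374 TPM in PBMC mice and 450.2, 412, 468, 435 and 411 TPM in PBMC-hCG mice, with Pecam1 the most abundant in every group. All 4 endothelium markers were higher against control in each group given RU486, although Cdh5 did not pass in the IF group with only IF and control fitted (limma adjusted p = 0.0501).

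Between IF and control all 6 epithelium markers were called, 4 higher and 2 lower. In the same comparison 1 of 6 stroma markers was higher (Dcn) and 2 were lower (Hoxa10 and Hoxa11), 2 of 8 leukocyte markers were higher (Ptprc and Adgre1), 1 of 5 tested ovary and oviduct markers was lower (Ovgp1), and Eomes was higher, the only tested gene of the blastocyst list and of unexamined cell origin. Of these, Krt8, Krt18, Ptprc, Adgre1 and Ovgp1 lost their calls when single mice were omitted, with the highest limma adjusted p without control replicate 5 for Krt8 (0.136) and Krt18 (0.1117), IF replicate 3 for Ptprc (0.0795) and Adgre1 (0.1173), and IF replicate 1 for Ovgp1 (0.0885). Epcam (0.0538 and 0.0609), Krt8 and Krt18 did not pass after quantile normalization or with these groups fitted alone. With PBMC against control, 3 epithelium markers were higher and 1 lower, 2 stroma markers were higher and 2 lower, 2 leukocyte markers were higher and Ovgp1 was lower. Of these, only Ptprc lost its call with a mouse omitted (control replicate 2, 4 or 5 or PBMC replicate 1, 2, 3 or 4), at a limma adjusted p of up to 0.0989, without PBMC replicate 4. With PBMC-hCG against control, 3 of 6 epithelium markers were higher and 2 lower. There 2 of 6 stroma markers were higher (Vim and Dcn) and 2 lower (Hoxa10 and Hoxa11), 3 of 8 leukocyte markers were higher, and 1 of 5 red cell markers and 1 of 5 tested ovary and oviduct markers were lower, and Eomes was higher. Of these, Cldn3, Nkg7 and Hba-a2 lost their calls when single mice were omitted, with the highest limma adjusted p without control replicate 4 for Cldn3 (0.0595), PBMC-hCG replicate 4 for Nkg7 (0.0724) and PBMC-hCG replicate 2 for Hba-a2 (0.1125). Between PBMC-hCG and IF, Krt8, Hoxa10 and Pdgfra were higher and the red cell genes Hba-a2 and Hbb-bs lower, and all 5 lost their calls once any of IF replicates 2, 4 and 5 or PBMC-hCG replicates 2, 3, 4 and 5 was left out, with a limma adjusted p without IF replicate 5 of 0.1257, 0.15, 0.1242, 0.1297 and 0.1313. The part of these markers in the results for the 8 genes was not tested.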

How the data were processed

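Uterine RNA of 20 mice was sequenced from stranded mRNA libraries. The authors deposited TPM values, made with Trimmomatic, HISAT2 and StringTie on mm10 per the labels. TPM keep no read depth, so no counting error is given. Groups and replicate numbers came from the labels, and the replicates were separate mice.

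Genes above 0 TPM in all 20 libraries (18706) were fitted as log2(TPM + 0.1) under R 4.3.3. The limma 3.58.1 fit held all 4 groups and a variance trend (16 residual degrees of freedom). Because TPM are not counts, the authors' count test was not repeated. Benjamini-Hochberg adjustment ran over all tested genes of a comparison. The pseudocount draws fold changes of low genes toward 0.

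The 8 genes and the gene lists were chosen with earlier results of these data known. All 8 are named. Up to 4 called genes with the smallest adjusted p per list and comparison are named, apart from 2 list genes left out here, with Fkbp5, Ptges3, Hspa8 and the receptors. The promoter motifs were chosen after the data had been seen. The fit was tested on simulated data. Other pseudocounts, filters, scalings, spread models and sample sets were tried.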

Additional observations from a re-analysis of the deposited data

Results flagged for a closer look

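In groups of 5 mice, the highest or lowest value was compared with its nearest neighbour relative to the range of the group, for the 8 genes, the named list genes and the summed cell type markers. Of 212 groups examined, 12 had a value that stood far from the others, and chance alone gives about 1 in 20 groups. Hsp90ab1 was at 1493 TPM in PBMC-hCG replicate 4, against 1674 to 1747 TPM in the other mice of that group. PBMC-hCG replicate 1 had 155.6 TPM of Ptges3 (113 to 124 in the others), 1722 TPM of Hspa8 (1188 to 1338) and 28.2 TPM of Fkbp15 (30.5 to 31.2). Fkbp7 was at 59.8 TPM in PBMC-hCG replicate 2 (56.3 to 57.0), and Med13 at 22.8 TPM in PBMC replicate 5 (20.6 to 21.1). Control replicate 2 had 59.7 TPM of Ppp5c (72.5 to 77.6), 77.2 TPM of Trap1 (98.9 to 106), 787 TPM of summed leukocyte markers (597 to 630) and 329.8 TPM of summed adipose markers (3.43 to 11.8). Summed adipose markers were also at 65.7 TPM in IF replicate 5 (2.88 to 5.997) and 23.2 TPM in PBMC replicate 4 (2.80 to 5.47).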

How the results depend on the processing

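Each of the 8 genes was refitted in 6 comparisons under 10 other settings and with each mouse of the comparison left out, 960 values in all, of which 905 kept direction and side of the threshold, 9 lost a call, 25 gained one and 21 changed sign. All sign changes were of differences near 0 that no setting called. For Nrip1 between PBMC-hCG and control they were -0.057 with the same median in every library, -0.055 after quantile normalization, -0.072 with sample quality weights, and -0.05, -0.032 and -0.003 without control replicate 5, PBMC-hCG replicate 1 and PBMC-hCG replicate 2 (highest 0.054 without control replicate 4). Without PBMC replicate 4, Nrip1 was at -0.001 between PBMC-hCG and PBMC and 0.009 between PBMC and control, against 0.144 and -0.135 without PBMC replicate 5 (the latter -0.164 with sample quality weights). Hsp90ab1 between IF and control was at 0.049 (quantile), 0.006 (weights), 0.01 (without control replicate 5) and 0.015 (without IF replicate 3), with a lowest value of -0.06 without control replicate 2. Between PBMC and IF it was at 0.016, 0.008, 0.007 and 0.002 without IF replicates 2, 4 and 5 and PBMC replicate 1, at 0.003 between PBMC and control without control replicate 5, and without PBMC-hCG replicate 4 at 0.008 against IF and 0.015 against PBMC. The lowest values of these 4 differences with a mouse left out were -0.046, -0.067, -0.068 and -0.041, and those under other settings -0.078, -0.066, -0.104 and -0.053 (quantile against IF, same median otherwise). Fkbp4 between PBMC-hCG and PBMC was at 0.018 (quantile) and 0.003 (without PBMC replicate 5), and lowest at -0.112 without PBMC-hCG replicate 1. With sample quality weights the genes called, of 18706 tested, numbered 6248 between IF and control, 34 between PBMC and IF, 8078 between PBMC-hCG and IF, 1461 between PBMC-hCG and PBMC, 6814 between PBMC and control and 9554 between PBMC-hCG and control. Of the 8 genes, 6 were called between PBMC-hCG and IF (beside 8078 of 18706) and 5 between PBMC and control (beside 6814 of 18706). A fold change of at least 2 with an unadjusted p under 0.05 gave 754, 82, 432, 167, 625 and 887 genes in that order and 0 of the 8 in every comparison. Fitting only the groups compared gave 2473 genes between IF and control and lost the calls of Ncoa2 between PBMC and control (adjusted p = 0.0707) and of Ncor1 between PBMC-hCG and control (adjusted p = 0.0574). Without a filter, 1 gene was called between PBMC and IF and 812 between PBMC-hCG and IF, and a pseudocount of 1 TPM or a mean of at least 1 TPM left 1 between PBMC-hCG and PBMC. The same median in every library gave 2 of the 8 between IF and control (Ncoa2 added), and that setting, quantile normalization and a mean of at least 1 TPM each gave 4 between PBMC and control (Ncoa1 added). With mice left out in turn, the genes called ranged from 3323 to 5012 (IF and control), 0 to 2 (PBMC and IF), 0 to 5061 (PBMC-hCG and IF), 2 to 7 (PBMC-hCG and PBMC), 2959 to 4628 (PBMC and control) and 4756 to 7513 (PBMC-hCG and control), and those among the 8 from 1 to 1, 0 to 0, 0 to 4, 0 to 0, 2 to 4 and 5 to 6. The labels tie mice of the same replicate number by nothing else. Over 30 pairs of the same number their deviations correlated at -0.247 to 0.457, 8 above 0.1, with the 3 highest between replicates 5 of the control, IF and PBMC groups (0.396, 0.272 and 0.457). A mouse correlated best with its own number in 12 of 60 cases, as many as random picks among 5 mice give on average. With the replicate number as a block, the genes called were 4153, 0, 3215, 2, 3638 and 6071, and 2 of the 8 passed between IF and control (Ncoa2 added), 2 between PBMC-hCG and IF (Hsp90aa1 and Ncoa1) and 4 between PBMC and control (Ncoa1 added). The named list genes and the cell type markers were put through the same alternatives, a step chosen after seeing the data, and none of the named list genes changed sign. Of those called, 7 of 18 (IF and control), 9 of 9 (PBMC-hCG and IF), 5 of 20 (PBMC and control) and 2 of 24 (PBMC-hCG and control) lost the call somewhere. Beyond smaller sample sets, the cause was not tested.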
